A study of Mus musculus with 12 samples.

Results

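The thymocyte and T cell markers described here are 10 genes, Cd3d, Cd3e, Cd3g, Cd4, Cd8a, Lck, Rag1, Rag2, Ptcra and Dntt, of which 9 had a named probe among 17742 named genes. Probes were taken by gene symbol, and where a gene had more than 1, the probe of highest mean across the 12 arrays stands for it. Lck, the kinase that starts T cell receptor signalling, had no probe under its name. Expression was measured in whole hearts at postnatal day 8, in mice of the C57bl/6 X 129 hybrid background. There were 2 biological samples of a Salvador mutant, labelled Salv CKO, and 2 wild-type samples, labelled Control, each hybridised to 3 technical arrays with 1 colour, Cy5. The sources used here give no Cre driver, no deleted part of the gene and no number of hearts per sample, and the source label names embryonic heart where the stage label gives P8.

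The thymus lies on the upper surface of the heart and is at its most active in young mice. Immature thymocytes there rearrange their receptor genes with the recombinase made of Rag1 and Rag2, add bases at the joints with the polymerase Dntt, and signal through a pre-receptor that contains Ptcra. They then carry both co-receptors, Cd4 and Cd8a, before they leave the thymus as T cells with the Cd3 chains around their receptor. A piece of thymus in a heart sample would bring the whole set, whereas T cells of blood or heart tissue carry the Cd3 chains and a co-receptor but not the recombinase. The question was whether any of the 4 samples held these transcripts, and whether the labelled groups differed.

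Background was read from 543 probes named for olfactory receptors, genes of the nose that were taken as silent here. Their median deposited intensity was 8.33 for the sample labelled Salv CKO 1 and 7.67 for Salv CKO 2, against 7 and 6.67 in Control 1 and 2. The background level was set, on each array, at their 95th percentile, which lay between deposited intensities of 90 and 184. A gene was counted as above background in a sample when its probe exceeded that level on all 3 arrays. By this rule 44.5% and 49.5% of all named genes were above background in Salv CKO 1 and 2, against 51.2% and 47.1% in Control 1 and 2. The rule compares probes within an array, and it does not depend on scaling between arrays.

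Of the 9 measured markers, Cd3e was above background in Salv CKO 1 but not in Salv CKO 2, and in both controls, so that 1 of 9 or 0 of 9 was above background in a sample. In all 4 samples at once it was 0 of 9 markers, where 43.1% of all named genes were. The other 8 markers, Rag1, Rag2, Ptcra, Dntt, Cd4, Cd8a, Cd3d and Cd3g, were below the background level on all 12 arrays, with deposited intensities from 1 to 92. The transcripts that mark immature thymocytes were thus not detectable above this background in any of the 4 samples. No thymus sample was analysed here, so the smallest amount of thymus RNA that these probes would show is not known. In whole-tissue RNA, fewer cells of a type and less RNA per cell cannot be told apart.

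**Figure D1:**
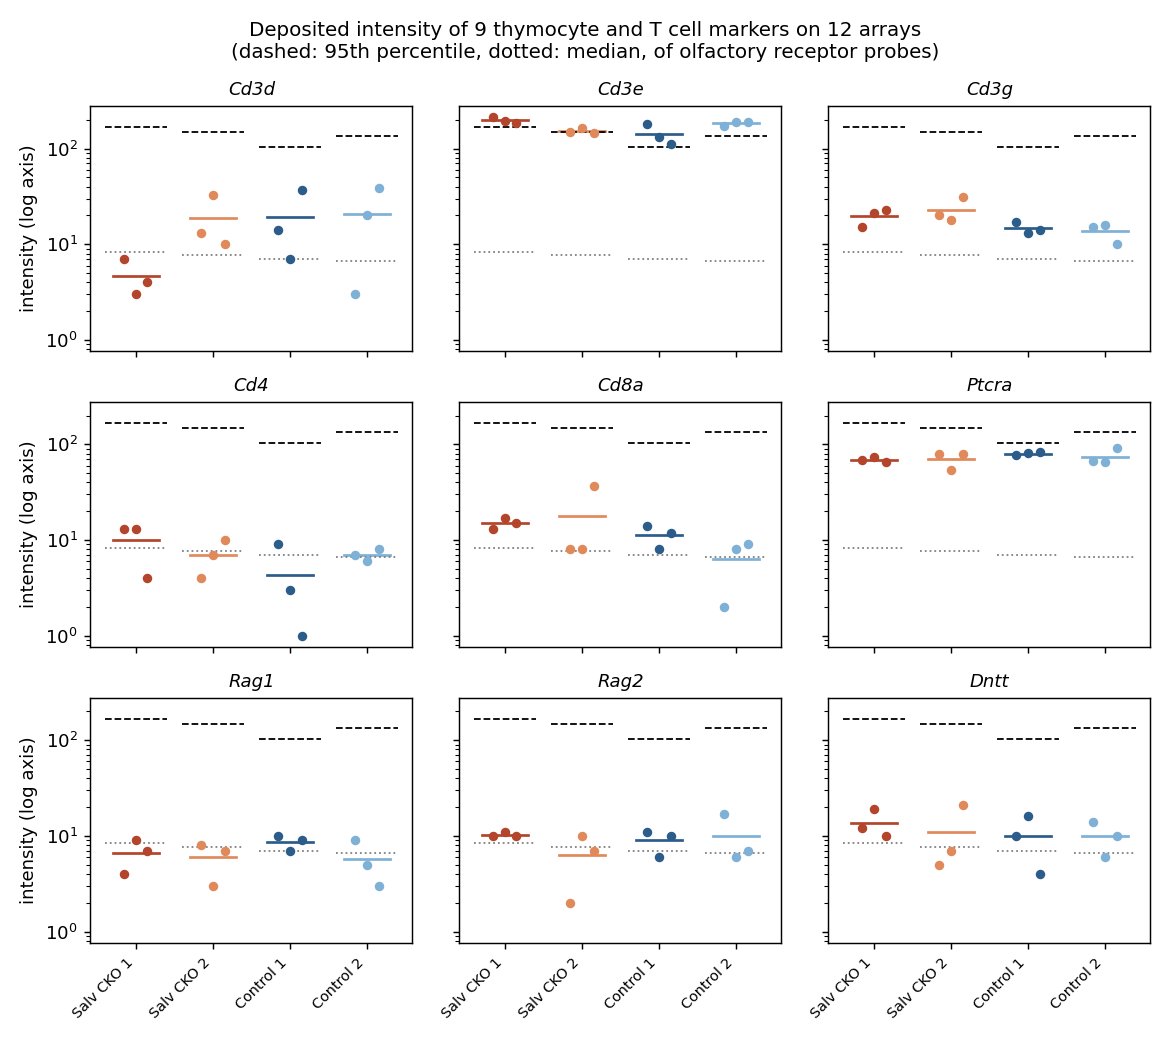
Deposited intensity (log axis) of each of 9 markers on the 3 technical arrays (points) of the 4 samples, with the sample mean as a coloured line and the 95th percentile and median of olfactory receptor probes, taken over sample means, as dashed and dotted lines. Only Cd3e reaches the dashed lines, Ptcra lies below them between 54 and 92, and the other 7 markers lie at 39 or less.

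Rag1 and Rag2, which cut DNA during receptor gene rearrangement, are neighbouring genes and were both at the level of the dim olfactory receptor probes. Rag1 had mean deposited intensities of 6.67 and 6.0 in Salv CKO 1 and 2, against 8.67 and 5.67 in Control 1 and 2. Rag2 had 10.3 and 6.33 in Salv CKO 1 and 2, against 9 and 10 in the controls. The groups overlapped for both genes, and no array of either gene exceeded an intensity of 17. Dntt, the terminal deoxynucleotidyl transferase, had 13.7 and 11 in Salv CKO 1 and 2, against 10 in each control, with single arrays from 4 to 21. The dimmer probe of Dntt read 1 to 10.

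Ptcra, the pre-T cell receptor alpha chain, was steady and lay nearer to the background level than the recombinase genes did. Its mean deposited intensity was 69.3 ± 4.51 and 71.0 ± 14.7 in Salv CKO 1 and 2, against 80.3 ± 3.06 and 74.7 ± 15 in Control 1 and 2 (SD over 3 technical arrays). All 12 values of Ptcra were below the background level of their own array, and 87.3% and 89.1% of olfactory receptor probes were dimmer in Salv CKO 1 and 2, against 92.6% and 90.8% in Control 1 and 2. On the normalized scale, log2(quantile-normalized intensity + 1), its level was 6.11 and 6.00 in Salv CKO 1 and 2, against 6.46 and 6.32 in Control 1 and 2. Both controls were thus higher than both Salv CKO samples, while single arrays overlapped, with a highest Salv CKO array of 6.19 and a lowest Control array of 6.15.

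The co-receptors, which bind the MHC molecules that present antigen, were dim. Cd4 had mean deposited intensities of 10 and 7.0 in Salv CKO 1 and 2, against 4.33 and 7.0 in Control 1 and 2. Cd8a had 15 and 17.7 in Salv CKO 1 and 2, against 11.3 and 6.33 in the controls. The value of Cd8a in Salv CKO 2 came from arrays at 8, 8 and 37, so 1 array made it the highest of the 4 samples. The dimmer probe of Cd8a read 1 to 9 on the 12 arrays.

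Cd3d, Cd3e and Cd3g encode chains of the Cd3 complex, which passes the signal of the T cell receptor into the cell, and lie next to each other in the genome with no other protein-coding gene between them. In T cells they are made together, but Cd3e was the only chain above background here. Cd3d had 4.67 and 18.7 in Salv CKO 1 and 2, against 19.3 and 20.7 in Control 1 and 2 (mean deposited intensity). Its arrays scattered widely, from 3 to 39 within Control 2 alone, so the low value of Salv CKO 1 lay within the range of the arrays of Control 2. Cd3g had 19.7 and 23.0 in Salv CKO 1 and 2, against 14.7 and 13.7 in the controls, with single arrays from 10 to 31.

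Cd3e read 212, 194 and 186 (deposited intensity) on the 3 arrays of Salv CKO 1 and 150, 166 and 146 on those of Salv CKO 2, against 180, 132 and 112 on those of Control 1 and 174, 192 and 191 on those of Control 2. On the normalized scale its level was 7.75 and 7.08 in Salv CKO 1 and 2, against 7.20 and 7.65 in Control 1 and 2. The arrays of Salv CKO 1 and of Control 2 (7.59 to 7.88 and 7.52 to 7.83) were all higher than those of Salv CKO 2 and of Control 1 (6.87 to 7.34 and 6.98 to 7.40), a split that crosses the labels. On the deposited scale 1 array of Control 1, at 180, lay among those of Control 2. The background level was 7.47 and 7.01 in Salv CKO 1 and 2, against 6.80 and 7.17 in Control 1 and 2, and so was also higher in Salv CKO 1 and Control 2 within each group. The level of Cd3e exceeded it by 0.28 and 0.07 in Salv CKO 1 and 2, against 0.40 and 0.47 in the controls.

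The Cd3e call rested on where background was set. With the 99th percentile of the olfactory receptor probes, or with the 95th percentile of 83 probes named for vomeronasal and taste receptors, Cd3e was not above background in any of the 4 samples. With the mean of the 3 arrays in place of all 3, it was above background in all 4. Whether the probe also binds another transcript was not tested.

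Against all olfactory receptor probes, the 9 markers had a median position of 60.8% and 63.5% in Salv CKO 1 and 2, against 64.1% and 61.9% in Control 1 and 2. The position is the share of olfactory receptor probes with a lower level in that sample. Over all named genes the median position was 92.6% and 95.4% in Salv CKO 1 and 2, against 96.1% and 94.5% in the controls. Single markers ran from 33.9% (Cd4 in Control 1) to 97.1% (Cd3e in Control 1).

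**Figure D2:**
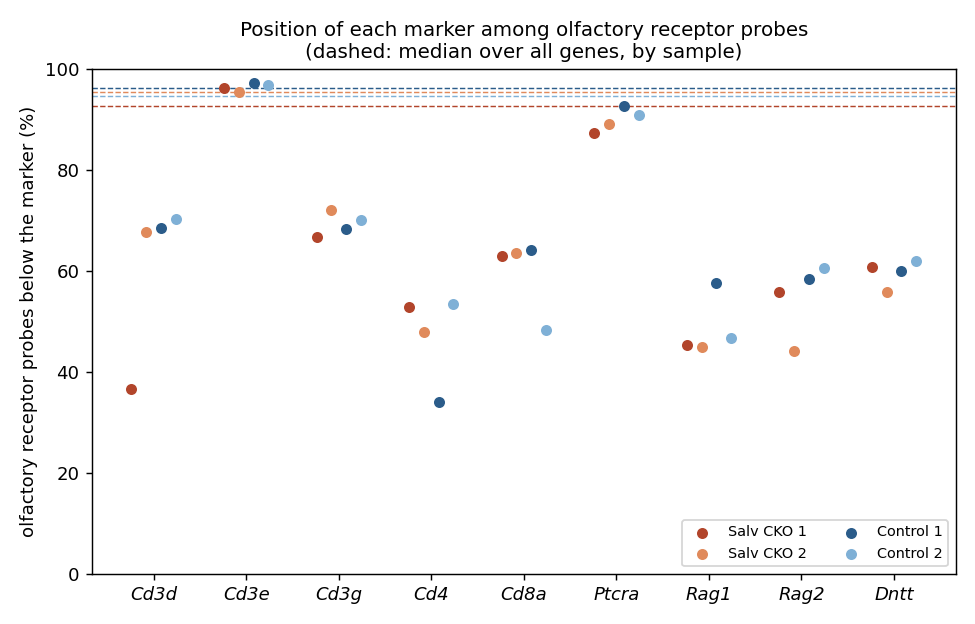
Share of 543 olfactory receptor probes (%) with a lower level than each marker, by sample (points), with the median over all named genes in each sample as dashed lines. Cd3e lies between 95.4% and 97.1% in all 4 samples and Ptcra between 87.3% and 92.6%, while the other 7 markers lie at 72.0% or less.

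Sav1, the targeted gene, was read by 1 probe and did not follow the labels. Its level was 8.06 and 8.52 in the mutant-labelled samples Salv CKO 1 and 2, against 8.75 and 8.08 in Control 1 and 2, and a probe outside the deleted part would check nothing. Directions below are therefore those of the labels.

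Between the labelled groups, no marker passed the threshold. Of the 9, 3 had a higher and 6 a lower mean level in the Salv CKO samples, and 0 passed an adjusted p of 0.05 (limma, adjusted over all 26423 probes, 2 samples against 2), where 0% of all probes did. At an unadjusted p under 0.05 there were 0 of 9 markers, where 3.97% of all probes passed. The median difference was -0.02 on the log2 scale, beside -0.01 over all probes. The groups did not overlap for 4 of 9 markers, Cd3d, Cd3g, Cd8a and Ptcra, where 30.6% of all probes did not overlap.

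Cd3e differed by -0.00903 ± 0.33 (SE, limma, adjusted p = 1.0), with means of 7.41 ± 0.47 in the Salv CKO samples and 7.42 ± 0.32 in the controls (SD, n = 2 each). The sign rested on single samples, since the difference in Cd3e was 0.32 without Salv CKO 2, 0.22 without Control 2 and -0.34 without Salv CKO 1. Ptcra differed by -0.33 ± 0.21 (SE, limma, adjusted p = 0.998), with means of 6.06 ± 0.08 in the Salv CKO samples and 6.39 ± 0.10 in the controls (SD, n = 2 each). The other 7 markers were at the level of the background probes in both groups, and their fitted differences, from -0.95 ± 0.58 for Cd3d to 0.54 ± 0.35 for Cd8a (SE, limma, adjusted p = 0.998 for both), are values between dim probes. The difference in Cd3d was -1.77 without Salv CKO 2 and -0.13 without Salv CKO 1. That in Cd8a was 0.96 without Control 1, 0.12 without Control 2 and 0.00678 with the median of the technical arrays in place of their mean. That in Cd4 was 0.86 without Control 2 and -0.0998 without Control 1. A fit without a sample leaves 1 sample in a group. For 7 of the 9 markers, all but Cd3e and Ptcra, the range over the technical arrays of a single sample exceeded the range over the 4 sample means.

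**Figure D3:**
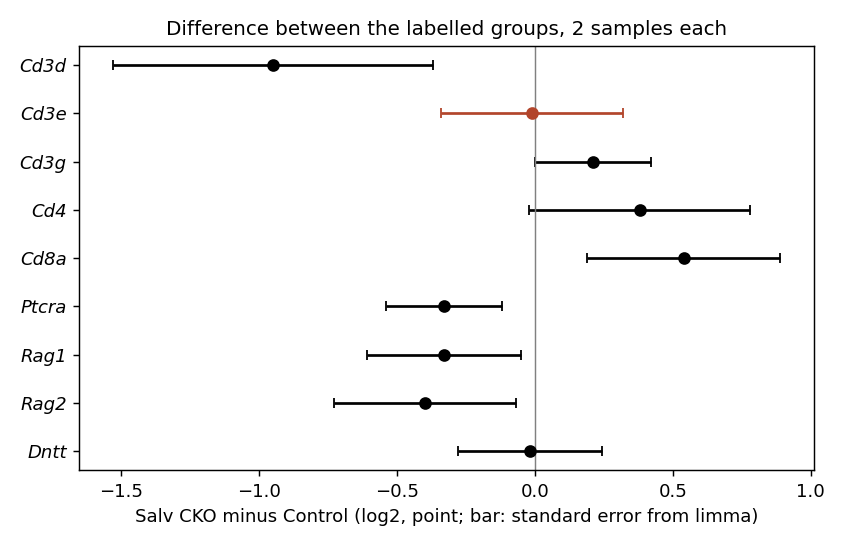
Difference in mean level, Salv CKO minus Control, on the log2 scale for each marker (points) with its standard error from limma (bars), 2 samples in each group. The points run from -0.95 for Cd3d to 0.54 for Cd8a, and none passed the adjusted threshold.

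Most of the wider set of T cell genes was also below background. Of 22 listed genes of T cell receptor signalling, 18 were measured, and 3 were above background in at least 1 sample, beside 53.1% of all named genes. These were Prkcq, Nfatc2 and Zap70. Prkcq, protein kinase C theta, which skeletal muscle also makes, was above background in all 4 samples, with levels of 7.80 and 7.54 in Salv CKO 1 and 2, against 7.78 and 8.04 in Control 1 and 2. Nfatc2, a calcium-dependent transcription factor that is not limited to T cells, had 7.44 and 7.81, against 8.03 and 7.68 in the controls, and was not above background in Salv CKO 1. Zap70, the kinase recruited to the Cd3 chains, had 7.04 and 6.90, against 7.10 and 7.07, and was above background only in Control 1 among the 4 samples. Of the 18 genes, 5 had a higher and 13 a lower mean level in the Salv CKO samples, 0 were called, and the median difference was -0.17. At an unadjusted p under 0.05 there were 3 of 18, where 3.97% of all probes passed. These were Cd5, Cd6 and Skap1, named after their values were seen, with differences of -0.78, -0.63 and -0.87 (limma, adjusted p = 0.998 for each), and all 3 were below the background level on all 12 arrays.

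Of 27 measured genes that immature thymocytes express, 12 and 13 were above background in Salv CKO 1 and 2, against 14 and 12 in Control 1 and 2, where 44.5% and 49.5%, against 51.2% and 47.1%, of all named genes were. These counts are near the shares of all genes, and nothing is read from them. Many genes of this list, such as Ets1, Hes1, Tcf3 and Tcf12, are made by many cell types. The genes with the widest range over samples were Tox2, Endou and Cd1d1. Tox2, an HMG-box factor, had levels of 8.96 and 8.32 in Salv CKO 1 and 2, against 7.51 and 8.78 in Control 1 and 2, so that Control 1 was lowest. Endou, an endoribonuclease, had 8.10 and 8.46, against 8.78 and 7.61. Cd1d1, which presents lipids to natural killer T cells and is made by many cell types, had 10.93 and 10.49, against 9.77 and 9.85 in the controls, without overlap (0.90 ± 0.25, SE, limma, adjusted p = 0.998). Over the 27 genes, 15 had a higher and 12 a lower mean level, 0 were called, and the median difference was 0.03. At an unadjusted p under 0.05 (limma) there was 1 of 27, Cd1d1, where 3.97% of all probes passed.

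The defining genes of thymic epithelium, the stroma that guides thymocytes, were below background too. Foxn1, the master factor of thymic epithelium, had levels of 6.26 and 5.81 in Salv CKO 1 and 2, against 5.63 and 5.74 in Control 1 and 2. Psmb11, the proteasome subunit particular to cortical thymic epithelium, had 4.41 and 3.78, against 3.28 and 3.76. Prss16, the thymus-specific serine protease, had 2.73 and 3.08, against 4.15 and 2.86. Ccl25, the chemokine that draws precursors into the thymus, had 6.39 and 6.57, against 6.32 and 6.72. All 4 genes were below the background level on all 12 arrays. Of the 19 measured genes of the list, 4 were above background in each Salv CKO sample, against 5 in Control 1 and 4 in Control 2. The shares of all named genes were 44.5% and 49.5% in Salv CKO 1 and 2, against 51.2% and 47.1% in the controls. Of the listed genes above background, those with the widest ranges were the keratin genes Krt5 and Krt14 and the Notch ligand gene Dll4, which other epithelia and endothelium make. Krt5 had 7.54 and 7.06, against 6.14 and 7.01, and Salv CKO 1 was the only sample in which it was above background. Krt14 had 8.25 and 9.03, against 8.93 and 8.75, and Dll4 had 7.48 and 7.69, against 8.24 and 7.65. Of the 19 genes, 7 had a higher and 12 a lower mean level in the Salv CKO samples, 0 were called, and the median difference was -0.13. At an unadjusted p under 0.05 (limma) there were 2 of 19, where 3.97% of all probes passed. These were Trp63 and Epcam, named after their values were seen, with differences of 0.65 and -2.32.

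Of 21 measured markers of mature T cells and natural killer cells, 2 were above background in all 4 samples and the others in none of them. Of all named genes, 43.1% were above background in all 4 samples and 53.1% in at least 1. The 2 markers were S1pr1 and Klf2, both of which endothelial cells also make. S1pr1, the receptor that lets lymphocytes leave the thymus, had levels of 11.11 and 11.63 in Salv CKO 1 and 2, against 11.39 and 11.31 in Control 1 and 2. Klf2, a factor that activates the S1pr1 gene, had 10.46 and 10.57, against 10.67 and 10.51. Of the 21 genes, 11 had a higher and 10 a lower mean level, with 0 called. At an unadjusted p under 0.05 (limma) there were 2 of 21, where 3.97% of all probes passed. These were Ccr7 and Fasl, named after their values were seen, with differences of -0.87 and -0.70. Ccr7 and Fasl, like Trp63 and Epcam, were below the background level on all 12 arrays. Thy1 had no probe under its name.

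Genes of leukocytes in general were above background about as often as other genes. Of 20 measured, 8 and 12 were above background in Salv CKO 1 and 2, against 12 and 9 in Control 1 and 2, beside the same shares of all named genes as above. T cells make these genes as well, so the list does not tell leukocyte types apart. Ptprc, the common leukocyte antigen CD45, had levels of 7.42 and 7.63 in Salv CKO 1 and 2, against 7.39 and 7.66 in Control 1 and 2, and was not above background in Salv CKO 1. Was, a regulator of actin in blood cells, had 6.00 and 6.64, against 7.22 and 6.36, Dock2 had 7.62 and 7.33, against 7.0 and 7.52, and the integrin gene Itgal had 7.86 and 7.45, against 7.48 and 7.28. Of 13 macrophage genes, 8 and 10 were above background in Salv CKO 1 and 2, against 11 and 10 in Control 1 and 2. The shares of all named genes were 44.5% and 49.5%, against 51.2% and 47.1%. Cd68, a lysosomal protein of macrophages, had 8.41 and 8.39, against 7.31 and 8.44, and the haemoglobin scavenger receptor gene Cd163 had 6.94 and 7.20, against 8.27 and 7.31. The mannose receptor gene Mrc1 had 10.19 and 8.09, against 9.94 and 10.27, where the low value of Salv CKO 2 came from 1 array at an intensity of 8, beside 1916 and 1699 on its other arrays. The pan-leukocyte list had 8 higher and 12 lower and the macrophage list 6 higher and 7 lower, with 0 called in either.

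B cell genes were few above background. Of 16 measured, 3 were above background in each Salv CKO sample, against 5 in Control 1 and 3 in Control 2. The shares of all named genes were 44.5% and 49.5% in Salv CKO 1 and 2, against 51.2% and 47.1% in the controls. Cd79a, a chain of the B cell receptor complex, had levels of 7.52 and 7.05 in Salv CKO 1 and 2, against 7.28 and 7.42 in Control 1 and 2, near the background level as Cd3e was. Its partner Cd79b had 7.14 and 7.16, against 7.39 and 6.84. Cd22, an inhibitory receptor of B cells, had 9.11 and 9.44, against 9.65 and 9.0, and Ebf1, a factor that fat and stromal cells also make, had 8.19 and 8.13, against 8.63 and 8.62. Of the 16 genes, 4 had a higher and 12 a lower mean level, with 0 called.

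**Figure D4:**
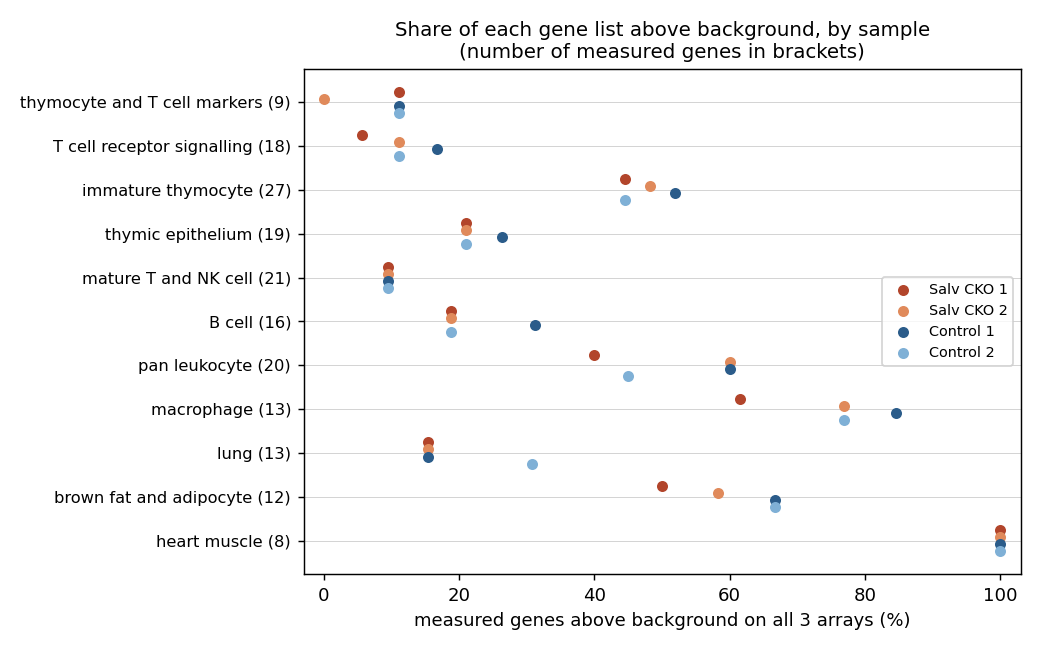
Share of the measured genes of each list (%) above background on all 3 arrays, for each of the 4 samples (points), with the number of measured genes in brackets. The heart muscle list lies at the right edge with all 8 genes in every sample, and the thymocyte and T cell markers lie at the left with 1 of 9 or 0 of 9.

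Genes of the airways, another tissue near the heart, differed between samples. Scgb3a2, a secretory protein of airway epithelium, read 1284, 1347 and 1239 (deposited intensity) on the arrays of Salv CKO 1 and 9, 8 and 12 for Salv CKO 2, against 31, 8 and 12 for Control 1 and 2683, 2741 and 2809 for Control 2. It was thus above background in Salv CKO 1 and Control 2 and in neither other sample. Scgb1a1, another airway secretory protein, read 641, 40 and 684 for Salv CKO 1 and 19, 13 and 21 for Salv CKO 2, against 19, 10 and 7 for Control 1 and 2145, 1966 and 2265 for Control 2. The second array of Salv CKO 1 read low for Scgb1a1 but not for Scgb3a2, so that only Control 2 passed the rule for Scgb1a1. Scgb3a1 had mean intensities of 83.0 and 42.7 in Salv CKO 1 and 2, against 26.3 and 1837 in Control 1 and 2, and was above background only in Control 2 among the 4 samples. Foxj1, a factor of motile cilia in airway epithelium, was named after its values were seen. Foxj1 arrays disagreed within Salv CKO 1 and within Control 2, so no order of the samples is read from them. Foxj1 read 20, 1108 and 6 on the arrays of Salv CKO 1 and 402, 388 and 525 for Salv CKO 2, against 553, 400 and 447 for Control 1 and 424, 290 and 21 for Control 2. By the rule of all 3 arrays it was above background in Salv CKO 2 and Control 1. Salv CKO 1 and Control 2 had the higher normalized levels of Cd3e and the higher mean intensities of the 3 secretory transcripts. Of these transcripts only Scgb3a2 was above background in both samples, and Scgb3a1 was below background in Salv CKO 1. Measured over the background level, Cd3e did not part Salv CKO 1 and Control 2 from the others. Its values were 0.28 and 0.07 in Salv CKO 1 and 2, against 0.40 and 0.47 in Control 1 and 2. A link of Cd3e to these transcripts was not tested.

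The whole list of 13 lung genes had 2 genes above background in each Salv CKO sample, against 2 in Control 1 and 4 in Control 2. The shares of all named genes were 44.5% and 49.5%, against 51.2% and 47.1%. Napsa, named after its values were seen, was above background in all 4 samples. Its levels were 9.22 and 8.71 in Salv CKO 1 and 2, against 8.03 and 9.09 in the controls. The summed deposited intensity of the list was 2918 and 1088 in Salv CKO 1 and 2, against 853 and 7693 in Control 1 and 2. Of the 13 genes, 3 had a higher and 10 a lower mean level in the Salv CKO samples, with 0 called. The median difference was -0.26, beside -0.01 over all probes. Sftpd, the surfactant protein D gene, was higher in the same samples as Scgb3a2 but below background, with levels of 6.39 and 2.39, against 2.60 and 6.54, and was named after its values were seen. Sftpc, the surfactant protein C gene of alveolar cells and likewise named after its values were seen, had 5.19 and 4.59, against 4.67 and 5.62, and was below the background level on all 12 arrays. For the 9 thymocyte and T cell markers the summed deposited intensity was 347 and 315 in Salv CKO 1 and 2, against 299 and 334 in Control 1 and 2. The part of airway tissue in the Cd3e levels was not tested.

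**Figure D5:**
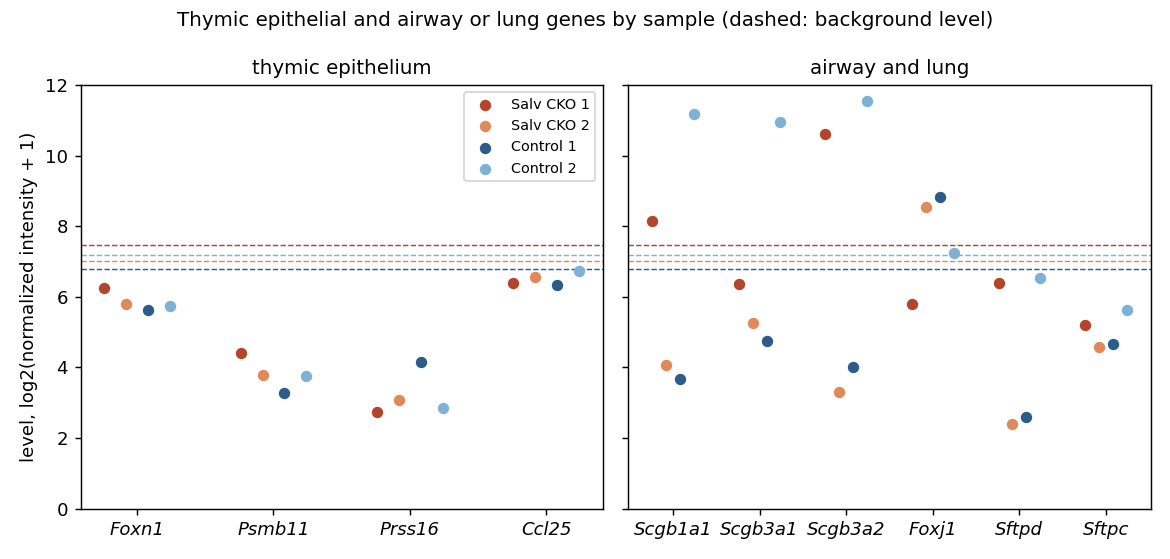
Level, as log2(normalized intensity + 1), of 4 thymic epithelial genes (left) and 6 airway or lung genes (right) in each of the 4 samples (points), with the background level of each sample as a dashed line. The thymic genes lie below the dashed lines in every sample, whereas Scgb3a2 has levels of 10.61 and 3.29 for Salv CKO 1 and 2, against 4.02 and 11.55 for Control 1 and 2. Foxj1 has 5.80 and 8.53, against 8.82 and 7.24, where the single arrays of Salv CKO 1 and of Control 2 disagree.

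Brown fat, which also lies against the heart, was represented by genes above background in every sample, at different levels. Ucp1, the uncoupling protein of brown fat, had levels of 11.95 and 9.75 in Salv CKO 1 and 2, against 12.71 and 11.74 in Control 1 and 2. The lipid droplet genes Plin1 and Cidec had 8.74 and 7.31, against 9.45 and 8.64, and 7.35 and 5.82, against 8.34 and 7.52. Of these, Cidec was above background only in the controls. Ucp1, Plin1 and Cidec were all highest in Control 1 and lowest in Salv CKO 2. Cd3e was also lowest in Salv CKO 2, at 7.08, but highest in Salv CKO 1, at 7.75. The part of brown fat in the Cd3e levels was not tested. Over the 12 fat genes 1 had a higher and 11 a lower mean level in the Salv CKO samples, with 0 called. The median difference was -0.46, beside -0.01 over all probes. At an unadjusted p under 0.05 (limma) there was 1 of 12, where 3.97% of all probes passed. It was Cfd, named after its values were seen, with a difference of -1.8, and it was not above background in any sample. Heart muscle itself was as labelled. Of a list of 14, 8 of 8 measured genes were above background on all 12 arrays, beside 43.1% of all named genes. Tnnt2, cardiac troponin T, had levels of 15.31 and 15.12, against 14.99 and 15.18, Actc1, cardiac actin, had 15.35 in each Salv CKO sample, against 15.37 and 15.62, and Tnni3, cardiac troponin I, had 15.09 and 15.24, against 15.35 and 15.11.

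The pattern of Cd3e over the 4 samples was compared with that of 9417 other named genes above background in at least 1 sample. The measure was the root mean square difference between 2 genes' sample means, each gene centred on its own mean, and 4 samples are too few for a correlation. The 10 closest genes were Wee1, Pld3, Rgs5, Prpf4, Otub2, Dcxr, Adam8, Zglp1, Slc25a12 and Dok3, at distances from 0.018 to 0.064 on the log2 scale, where the median gene lay at 0.346. Wee1, a kinase that holds back entry into mitosis, had levels of 7.54 and 6.83 in Salv CKO 1 and 2, against 6.97 and 7.45 in Control 1 and 2. Rgs5, a gene of pericytes, had 9.98 and 9.36, against 9.50 and 9.96. In all, 42 genes lay within 0.1 of Cd3e. The pattern compared is that of a single probe near background. The level of Cd3e exceeded the background level by 0.07 (Salv CKO 2) to 0.47 (Control 2). The other 8 measured members of the marker list were below background and were not compared in this way.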

How the data were processed

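Amplified RNA carrying an amino-allyl nucleotide was coupled to Cy5, per the labels' protocols, and 12 arrays were hybridised, 3 technical arrays for each of 4 samples. The deposited values are intensities on a linear scale, whole numbers from -10 to 65474 for 26423 probes. Array medians ran from 58 to 88, so arrays were not on a common scale, and values below 0 show a subtracted background. The sources used here name no scanner, background method or normalization. The number of samples, 2 per group, limits the precision.

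Arrays were quantile normalized with limma, negative values were raised to the smallest positive one (0.0833), and the log2 of each value plus 1 was used, a scale that understates changes of dim probes. Groups were compared by limma (version 3.58.1, R 4.3.3) on the means of the 3 technical arrays, 2 samples against 2, two-sided, Benjamini-Hochberg over all probes. The labels say only that samples are biological replicates, so a p-value here reflects only how far these samples spread, which may be partly technical. Figures were drawn with matplotlib 3.10.9.

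Probes were named from the platform annotation (20377 with 1 symbol, 0 with several, 6046 with none) and updated with RefSeq names of GRCm38.p6 (18213 probes by symbol, 2126 by an unambiguous synonym, 38 unmatched). Named genes were all 10 members, Sav1, set genes (Foxn1, Psmb11, Prss16, Ccl25, Ptprc, Cd79a and Thy1, with 1 more not reported here), the 3 genes of each of 10 other lists with the widest range among those above background, and the 10 genes most like Cd3e. Members and lists were chosen with earlier results of these data known. Alternatives covered normalization, pseudocount, technical arrays, replicate block, variance model, dim probes, single samples, probe choice and background. Themis is in the T cell receptor and the immature thymocyte lists.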

Additional observations from a re-analysis of the deposited data

How the results depend on the processing

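Of 158 alternative values, 139 were labelled the same: a difference kept its sign and side of the threshold, or a count did not change. Of the others, 10 were counts that changed and 9 were differences that changed sign. The settings for blocks, pairing, variance model and dim probes leave each difference as it was, so they could not turn its sign. In limma, 0 of 9 markers passed in any setting, including the replicate block, each sample left out and the 2 markers left without the dimmest 50% of probes. The 0 of 26423 called probes (1048 at unadjusted p under 0.05) stayed 0 with the replicate block (743 at unadjusted p under 0.05), without any 1 sample and with the other settings but 3. It was 2 with median centring, 14 without normalization, where the median over all probes moved to 0.111, and 61 with 12 arrays and the sample as a random block. Equal sample numbers are not said to mark a shared litter. Their deviations correlated at -0.253, and a crossed pairing, chosen after seeing the data, called 0 probes.

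Signs turned for dim or small differences. Cd3e (-0.00903) was 0.12 without normalization, and ran from -0.34 to 0.32 with a sample left out. Dntt (-0.0182) was 0.0582 with median centring, 0.25 without normalization and 0.12 with the mean of its probes, and ran from -0.26 to 0.22 with a sample left out (above 0 without Salv CKO 2 and, at 0.0254, without Control 2). Cd4 (0.38) ran from -0.0998 without Control 1 to 0.86 without Control 2. The cause was not tested.

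The markers above background, 1 for Salv CKO 1, 0 for Salv CKO 2 and 1 for each control, became 0 in all 4 samples with the 99th percentile or with vomeronasal and taste receptors, and 1 in Salv CKO 2 with the mean of the arrays. Signal over background limits these calls: the markers other than Cd3e and Ptcra were brighter than at most 72.0% of the background probes.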
